A study of Mus musculus with 59 samples.

Results

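The genes described here were 8 acute-phase genes of the mouse, Serpina3n, Hp, Lcn2, Saa1, Saa2, Saa3, Lbp and Lrg1, taken by their symbols from the 47643 genes of the deposited expression table. They were followed through 59 RNA-seq libraries of 3 muscles in 8 groups. The animals were females of the strain NCI Ath/nude at 4 months of age, athymic mice that lack mature T cells, and all carried a melanoma xenograft grown from human tumour tissue, so that no group was free of tumour. The 2 melanomas were called cachectic or non-cachectic, and because each class was 1 tumour, cachexia and the identity of the tumour cannot be told apart. The diaphragm, the main muscle of breathing, came from mice with the cachectic melanoma that received recombinant Fibcd1 (rFibcd1, n = 10) or mock treatment (n = 10), and from mice with the non-cachectic melanoma that received rFibcd1 (n = 10) or mock treatment (n = 9). Fibcd1 is the protein under study, and rFibcd1 was given by intraperitoneal injection. The labels of the mock groups name the melanoma alone, and "mock" is the word of the study's methods. The tibialis anterior, a fast muscle of the lower leg, and the soleus, a slow postural muscle, each came from 5 mice with the cachectic and 5 with the non-cachectic melanoma, and their labels name no injection.

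The acute-phase response is the change in plasma proteins that follows infection, injury or a growing tumour. Cytokines of the interleukin-6 family signal through gp130 and STAT3, interleukin-1 and tumour necrosis factor signal through NF-kB, and C/EBP factors join them on the promoters of the responding genes. The liver makes most of these proteins, while muscle, fat, macrophages and epithelia make some of them too.

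Serpina3n, a secreted inhibitor of serine proteases, lies at chr12:104406729-104414329 on the plus strand (GENCODE M21 on GRCm38, as for all positions here), and Lrg1, a leucine-rich glycoprotein that acts with endoglin in TGF-beta signalling, at chr17:56119678-56122001 on the minus strand. Hp, haptoglobin, which binds free haemoglobin for uptake through Cd163, lies at chr8:109575128-109579172 on the minus strand. Lcn2, a lipocalin that withholds iron by binding bacterial siderophores, lies at chr2:32384633-32388252 on the minus strand, and Lbp, which carries lipopolysaccharide to Cd14 and Tlr4, at chr2:158306493-158332852 on the plus strand. The serum amyloid A genes are neighbours on chromosome 7. Saa3, which is made mainly outside the liver, lies at chr7:46711998-46715700 on the minus strand, Saa1 at chr7:46740497-46742980 on the minus strand and Saa2 at chr7:46751790-46754313 on the plus strand. Saa1 and Saa2 encode proteins of high-density lipoprotein that come mainly from the liver. All 8 genes are annotated as protein coding, and a level given below covers the exons of the whole gene.

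The stretches just upstream of 4 members are shown because they carry the letters of motifs named for factors of the acute-phase response. They came from a RefSeq promoter table on GRCm38.p6, which had rows for 6 of the 8 genes and none for Hp or Lbp. Each is written 5′ to 3′ on the strand of its gene, and capitals mark the motif match, which in Saa3 reads on the opposite strand.
Serpina3n (chr12:104406529-104406728, plus strand): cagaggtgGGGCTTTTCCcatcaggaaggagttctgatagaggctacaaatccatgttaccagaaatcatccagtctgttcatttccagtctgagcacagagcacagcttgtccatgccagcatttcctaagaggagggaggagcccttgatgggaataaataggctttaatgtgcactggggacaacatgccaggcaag
Saa1 (chr7:46742981-46743180, minus strand): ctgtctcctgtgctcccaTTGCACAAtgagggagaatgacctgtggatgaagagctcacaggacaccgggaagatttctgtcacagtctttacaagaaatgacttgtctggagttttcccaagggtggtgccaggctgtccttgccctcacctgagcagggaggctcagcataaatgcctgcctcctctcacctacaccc
Saa2 (chr7:46751590-46751789, plus strand): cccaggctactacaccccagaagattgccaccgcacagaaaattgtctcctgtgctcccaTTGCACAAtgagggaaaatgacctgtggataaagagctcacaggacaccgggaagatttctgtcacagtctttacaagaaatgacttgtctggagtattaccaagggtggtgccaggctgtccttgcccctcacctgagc
Saa3 (chr7:46715701-46715900, minus strand): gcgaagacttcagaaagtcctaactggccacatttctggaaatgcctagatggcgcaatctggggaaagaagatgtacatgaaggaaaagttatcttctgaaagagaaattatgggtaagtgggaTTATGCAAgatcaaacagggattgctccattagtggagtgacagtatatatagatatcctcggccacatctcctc
The NF-kB-type motif, GGG followed by any 2 bases and TTTCC, stood in the Serpina3n window, and 1.63% of the 32851 promoter windows of 300 bases in the table held them on either strand. The letters TTGCNNAA, the C/EBP-type motif, stood in the windows of Saa1, Saa2, Saa3 and Lcn2, and 10.8% of all windows held them. The STAT-type letters TTCNNNGAA stood in 0 of the 6 member windows and in 8.3% of all windows. A match is a run of letters and not a measured binding site. The Saa1 and Saa2 stretches, read over 250 bases before each RefSeq start, were identical at 94.8% of aligned positions, and their main annotated transcripts at 93.9%. Over 100-base stretches of all their annotated exons, 8.96% of those of Saa1 were found letter for letter in Saa2, while 0 of the 510 such stretches of its main transcript were found in that of Saa2. Reads from the shared exon stretches cannot be told apart between these genes, and their separate levels are uncertain to that extent. Serpina3n shared 4 of its 1965 stretches of 100 bases with Serpina3e-ps or Serpina3g.

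Levels are in TPM, a share of the transcripts of a library that allows for transcript length, and differences are on the log2(TPM + 1) scale from limma, with the standard error (SE) and a Benjamini-Hochberg p over all genes of the fit. A gene entered a fit, and is called tested here, where it reached 1 TPM in enough libraries to fill the smallest group. A gene counts as called at an adjusted p under 0.05. All 8 members were tested in the diaphragm, 7 in the tibialis anterior, where Saa2 fell under the filter, and 6 in the soleus, where Saa1 and Saa2 did. Muscle markers were high in every library, with sums of 11 of them between 48556 and 101846 TPM. Albumin, a liver gene, ran in the diaphragm up to 5724 TPM, and 20 of the 39 diaphragm libraries lay under 20 TPM. The libraries also fell into a pair of states by the pseudogene Pcna-ps2, above or below 1 TPM. Of the diaphragm libraries, 9 of 10 cachectic mock, 8 of 10 cachectic rFibcd1, 3 of 9 non-cachectic mock and 6 of 10 non-cachectic rFibcd1 were above it. In both limb muscles every cachectic library was above it and every non-cachectic one below, so that this state and the melanoma cannot be told apart there. In bulk tissue, more cells of a type and more RNA per cell cannot be told apart either.

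In the mock-treated diaphragm, Serpina3n, Hp, Lcn2, Lbp and Lrg1 were higher with the cachectic melanoma, and Saa3 did not pass. Saa1 and Saa2 were called too, which makes 7 of 8, but they entered the fit through the cachectic diaphragm groups, where they are high, and so were likely to differ. Serpina3n had the largest difference of the 8. Across all 13426 genes tested, 30.9% were called higher in this comparison and the median log2 difference was 0.20. The background leans on the scaling, since 4143 genes were called higher and 358 lower on the deposited TPM, but 997 and 1190 after median-ratio scaling, which moves the median over all genes by -0.19. Of the 8 members 6 were called higher after that scaling, with Serpina3n at 4.15 and Saa2 no longer called (adjusted p = 0.0583).

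**Figure D1:**
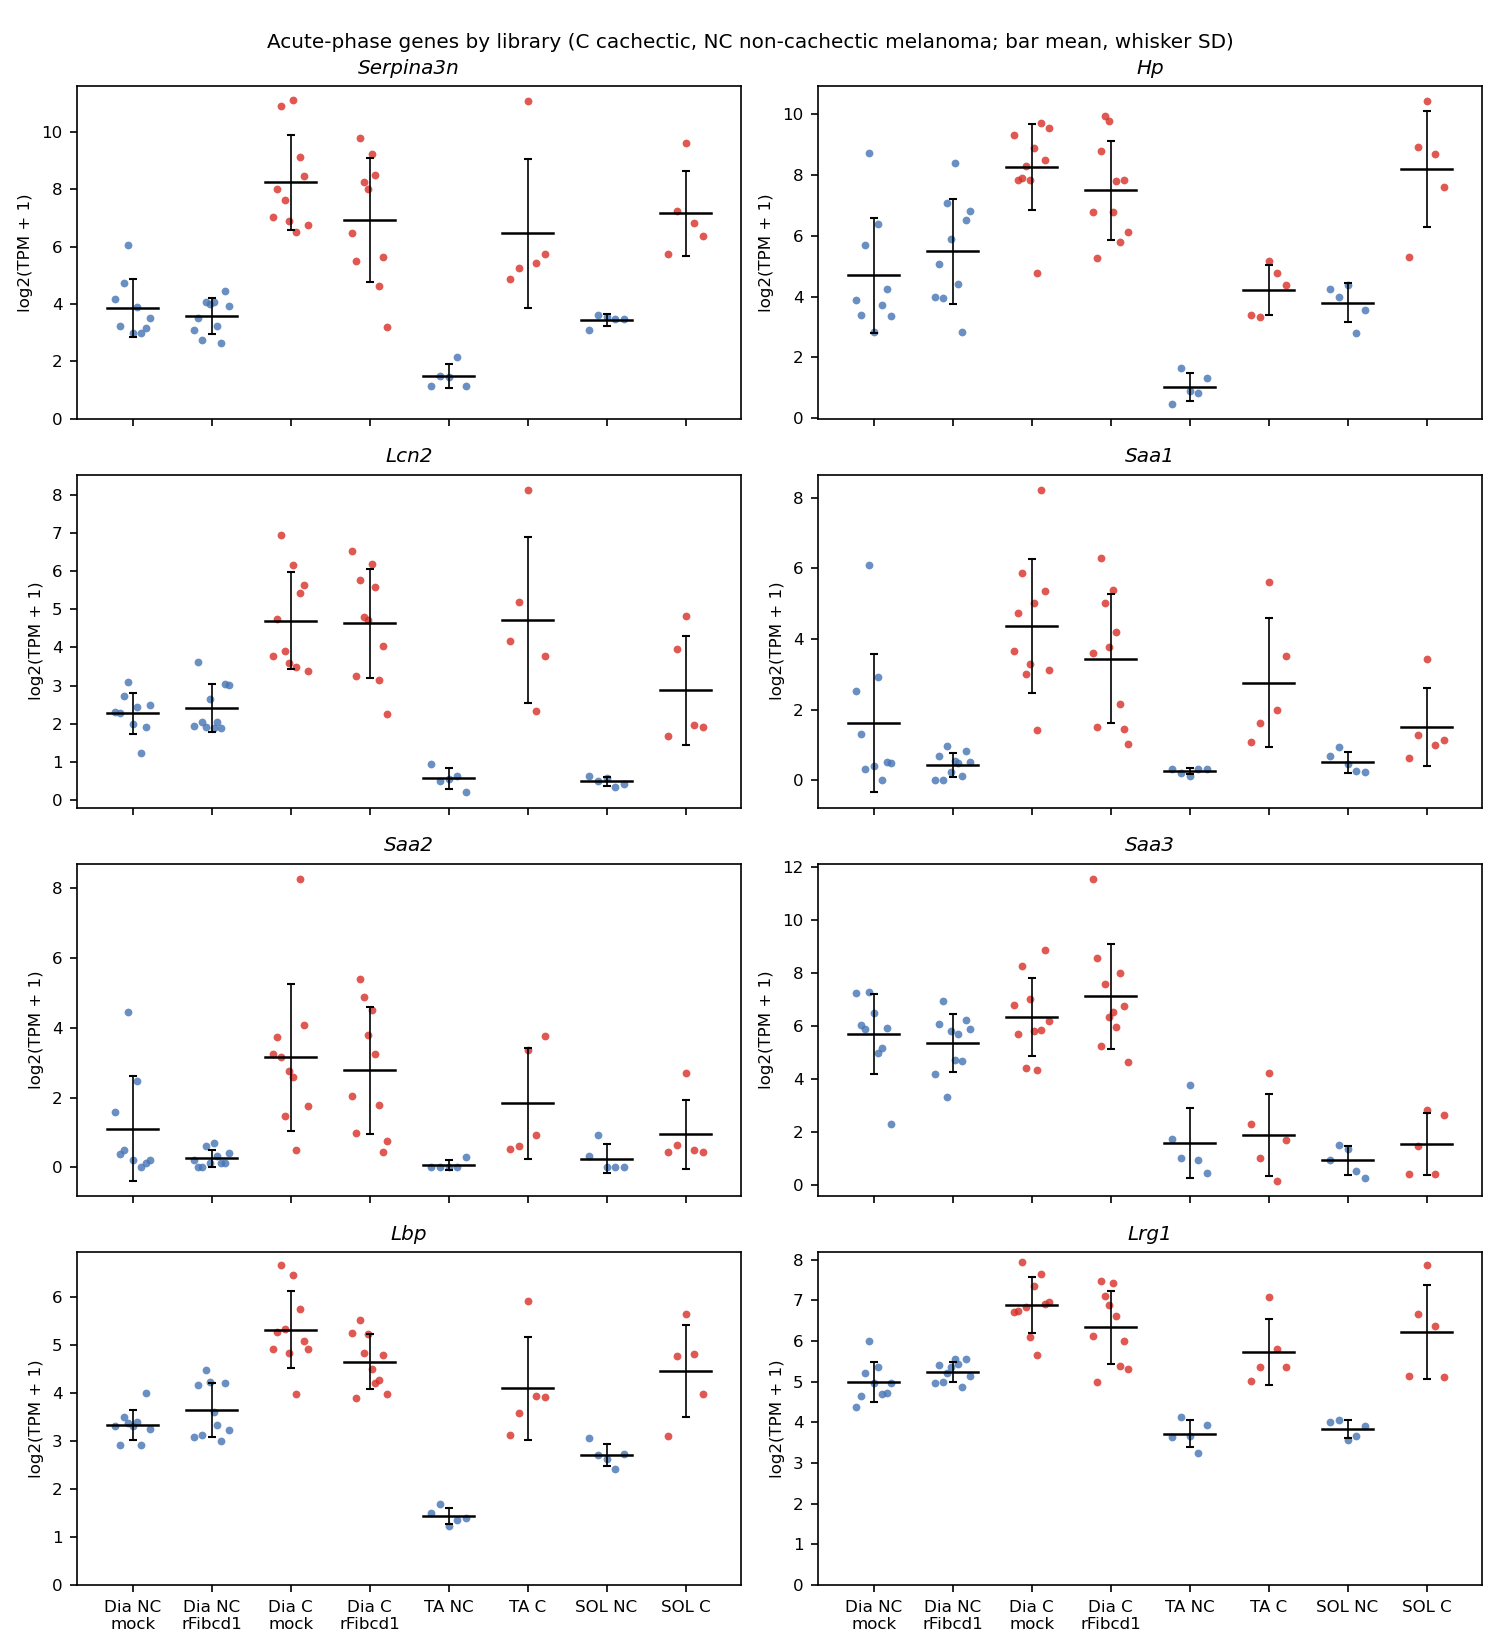
Level of each member, log2(TPM + 1), in the 59 libraries, 1 panel per gene and 1 column per group (C, cachectic melanoma; NC, non-cachectic melanoma). Points are libraries, bars are group means and whiskers are 1 SD. Serpina3n in the diaphragm runs from 89.0 to 2184 TPM in the cachectic mock group and from 6.86 to 66.3 TPM in the non-cachectic mock group, while the Saa3 columns of the diaphragm overlap.

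Serpina3n lay at 89.0 TPM in the lowest, 227 in the median and 2184 in the highest of the 10 cachectic mock libraries. In the 9 non-cachectic mock libraries it lay at 6.86, 10.4 and 66.3 TPM. No library of one melanoma overlapped the other, and the log2 difference was 4.37 ± 0.66 (SE, adjusted p = 2.25e-05). The transcript moved from a median rank of 5579 among the genes of a library with the non-cachectic melanoma to 415 with the cachectic one, and to rank 37 in the library where it stood best. Lrg1 ran from 49.3 through a median of 116 to 246 TPM with the cachectic melanoma and from 19.6 through 30.2 to 62.9 TPM without it, a log2 difference of 1.89 ± 0.28 (adjusted p = 1.64e-05). For Lrg1, 9 of the 10 cachectic libraries lay above every non-cachectic one.

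Hp, Lcn2 and Lbp were higher as well. Haptoglobin lay at 26.6, 335 and 842 TPM in the lowest, median and highest cachectic mock libraries and at 6.22, 14 and 419 TPM in the non-cachectic ones. These groups overlapped, with 4 of 10 cachectic libraries above the highest non-cachectic one, and the log2 difference was 3.56 ± 0.74 (adjusted p = 0.000523). Lcn2 lay at 9.45, 19.9 and 123 TPM against 1.34, 3.97 and 7.55 TPM, with no overlap, a log2 difference of 2.43 ± 0.47 (adjusted p = 0.000253). Lbp lay at 14.8, 35.4 and 100.5 TPM against 6.59, 8.93 and 15 TPM and had the smallest adjusted p of the 8 (log2 difference 1.99 ± 0.26, adjusted p = 3.89e-06). The groups of Lbp touched through 1 cachectic library. Serpina3n and Lcn2 were thus the 2 members whose groups were fully apart, a pattern shown by 4.07% of all genes tested.

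Of the serum amyloid A genes, Saa1 and Saa2 were higher with the cachectic melanoma and Saa3 did not pass. Saa1 lay at 1.69, 18.8 and 299 TPM in the lowest, median and highest cachectic mock libraries and at 0, 0.422 and 67.4 TPM in the non-cachectic ones (log2 difference 2.76 ± 0.73, adjusted p = 0.00428). Saa2 lay at 0.422, 6.82 and 307 TPM against 0, 0.313 and 21 TPM (log2 difference 2.04 ± 0.70, adjusted p = 0.0236). For either gene a single cachectic library exceeded the highest non-cachectic one. Both extremes were libraries with liver transcripts, since the non-cachectic library with Saa1 at 67.4 TPM was the one with albumin at 5724 TPM, and the cachectic library with Saa2 at 307 TPM had albumin at 1516 TPM. Without the latter library the log2 difference of Saa2 was 1.48 and no longer passed (adjusted p = 0.0583). Saa3 lay at 18.9, 63.6 and 458 TPM against 3.85, 60.0 and 152 TPM, so the medians lay close together and the groups overlapped, with a log2 difference of 0.62 ± 0.68 (adjusted p = 0.482).

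These calls were repeated in the 20 diaphragm libraries with albumin under 20 TPM, a limit chosen after the data were seen, of which 6 were cachectic mock and 5 non-cachectic mock. There the same 7 members were called, as were 3205 of all 13441 genes tested, with log2 differences of 4.79 for Serpina3n, 4.07 for Hp, 3.12 for Saa1 and 1.78 for Saa2. None of the 14 liver markers tested was called between the melanomas in the mock-treated diaphragm by limma, and 0 of them had an unadjusted p under 0.05. With the Pcna-ps2 state as a term in the fit, 6 members and 2059 of 13426 genes were called, and Saa2 was not (log2 difference 2.01, adjusted p = 0.0763). Among libraries above the limit alone 6 members and 805 of 14159 genes were, again without Saa2 (adjusted p = 0.131).

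Under rFibcd1, Serpina3n, Lcn2, Lbp and Lrg1 were higher in the cachectic diaphragm, and 7.14% of all genes tested were called higher. Saa1 and Saa2, again present in the fit through the cachectic groups, were called as well, and the median log2 difference over all genes was 0.084. Serpina3n lay at 8.13, 173 and 873 TPM in the lowest, median and highest cachectic rFibcd1 libraries and at 5.27, 12.2 and 20.8 TPM in the non-cachectic rFibcd1 ones. The lowest cachectic library fell within the non-cachectic range and the other 9 lay above it (log2 difference 3.35 ± 0.65, adjusted p = 0.00265). Lcn2 lay at 3.80, 26.2 and 92.3 TPM against 2.69, 3.13 and 11.2 TPM, with 7 of 10 cachectic libraries above the non-cachectic range (2.23 ± 0.45, adjusted p = 0.00295). Lbp lay at 13.9, 24.4 and 45.3 TPM against 7.02, 10.2 and 21.4 TPM, and 6 cachectic libraries were above the range (1.01 ± 0.26, adjusted p = 0.0115). For Lrg1, at 31.1, 83.1 and 176 TPM against 28.1, 37.8 and 45.9 TPM, 7 of them were (1.09 ± 0.27, adjusted p = 0.00992).

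The groups of Saa1 were fully apart under rFibcd1, as were those of 0.0521% of all genes. This is given as a description, since no non-cachectic rFibcd1 library reached 1 TPM for Saa1 or Saa2 and both entered the fit through the cachectic groups. Saa1 lay at 1.03, 11.9 and 77.1 TPM with the cachectic melanoma and at 0, 0.420 and 0.965 TPM with the non-cachectic one (log2 difference 3.01 ± 0.71, adjusted p = 0.00685). Saa2 lay at 0.367, 5.78 and 41.3 TPM against 0, 0.126 and 0.619 TPM (2.52 ± 0.68, adjusted p = 0.0166). Haptoglobin and Saa3 did not pass. Haptoglobin lay at 37.9, 166 and 990 TPM against 6.14, 45.5 and 338 TPM (2.00 ± 0.72, adjusted p = 0.0702), and leaving out any 1 of 5 libraries brought it under the threshold. Saa3 lay at 23.6, 98.6 and 2987 TPM against 8.82, 52.8 and 123 TPM (1.76 ± 0.66, adjusted p = 0.0852), and passed without 1 cachectic library (2.04, adjusted p = 0.0373). In the libraries with albumin under 20 TPM, 0 members were called in this comparison by limma, as were 0 genes in all, with 4 cachectic and 5 non-cachectic libraries left, and 3 members had an unadjusted p under 0.05. Among libraries above the Pcna-ps2 limit 0 members were called by limma as well, with 7 at an unadjusted p under 0.05, and 0 passed with the Kruskal-Wallis and Dunn tests after adjustment over all genes. In each of these settings 0 of all genes were called in this comparison. The difference of Serpina3n was 1.46 with albumin under 20 TPM, 2.43 above the Pcna-ps2 limit and 3.54 as a difference of medians beside the Dunn tests. That of Lcn2 was 0.87, 1.64 and 2.72, and that of Saa1 1.37, 2.48 and 3.18. Over all limma settings tried, the lowest difference was 0.37 for Lrg1, 0.74 for Lbp and 0.82 for Saa2. After median-ratio scaling the same 6 members were called, while the genes called higher and lower went from 958 and 265 to 573 and 706.

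Whether rFibcd1 itself moved these genes was asked within each melanoma, against the same mock libraries as above. With the cachectic melanoma 0 of the 8 were called by limma, 2 had an unadjusted p under 0.05, and 0.0447% of all genes were called in either direction. The medians of Serpina3n were 173 TPM with rFibcd1 and 227 TPM with mock treatment, and its log2 difference was -1.31 ± 0.65 (95% interval -2.62 to -0.01, adjusted p = 0.474). The medians of Lbp were 24.4 and 35.4 TPM, with a log2 difference of -0.67 ± 0.26 (95% interval -1.19 to -0.15, adjusted p = 0.348). Those of Lrg1 were 83.1 and 116 TPM (-0.55, 95% interval -1.10 to 0.00, adjusted p = 0.476). For each of these 3 genes the libraries overlapped widely. The interval for haptoglobin ran from -2.22 to 0.69, that for Lcn2 from -0.99 to 0.85 and that for Saa3 from -0.55 to 2.14, so a 2-fold difference lay outside the interval for Lcn2 alone. The members' median was -0.61, beside 0.035 over all genes.

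This result moved with the libraries used. Among those with albumin under 20 TPM, which left 4 rFibcd1 and 6 mock libraries of the cachectic melanoma, 3 members were called lower with rFibcd1. Serpina3n had medians of 34.0 and 158 TPM (log2 difference -3.55, adjusted p = 0.0236), Saa1 of 1.80 and 8.27 TPM (-2.09, adjusted p = 0.0405) and Lrg1 of 39.97 and 119 TPM (-1.38, adjusted p = 0.0231). In that subset 736 of 13441 genes in all were called. The albumin limit was chosen after the data were seen, and the part that liver RNA plays was not tested. Among the libraries above the Pcna-ps2 limit no member was called in this comparison, while 789 of 14159 genes were. With the non-cachectic melanoma 0 members were called by limma and 0 had an unadjusted p under 0.05, with 0.417% of all genes called. A fit of these 2 groups alone called 2453 of 12541 genes in place of 56, and again 0 members. The log2 differences ran from -1.18 for Saa1 (adjusted p = 0.34) to 0.80 for Hp (adjusted p = 0.48). The test of whether the rFibcd1 difference itself differed between the melanomas called 0 members and 0.0223% of genes. Lbp (-0.99, adjusted p = 0.543) and Lrg1 (-0.80, adjusted p = 0.565) had unadjusted p-values of 0.0109 and 0.046.

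**Figure D2:**
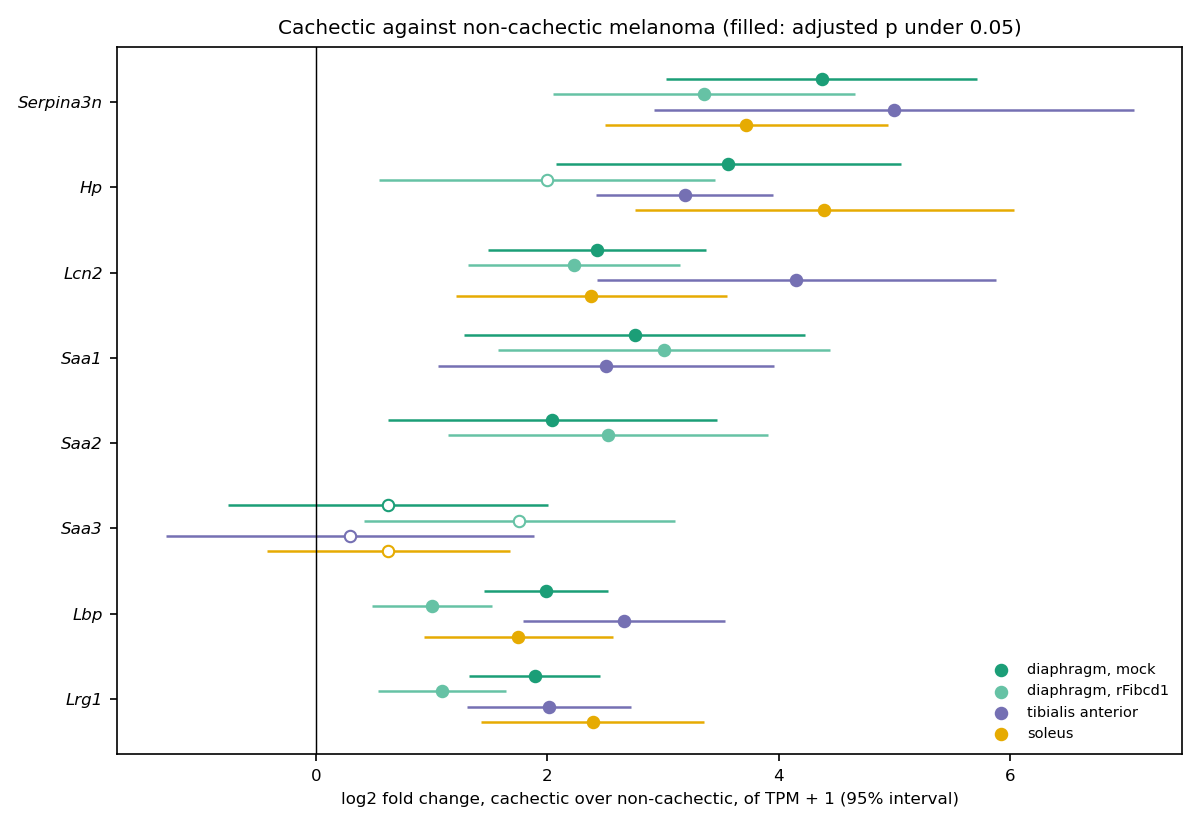
Log2 difference between cachectic and non-cachectic melanoma for each member, with its 95% interval, in the mock-treated diaphragm, the rFibcd1-treated diaphragm, the tibialis anterior and the soleus. Filled points passed an adjusted p of 0.05 in limma; Serpina3n, Lcn2, Lbp and Lrg1 are filled throughout, Saa3 in none.

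In the tibialis anterior, Serpina3n, Lbp and Lrg1 were higher with the cachectic melanoma, and Saa3 did not pass. Hp was called as well, but 2 of its 5 non-cachectic libraries reached 1 TPM, so it passed the filter through its cachectic libraries and was likely to differ. Lcn2 and Saa1 were called too, but no non-cachectic library reached 1 TPM for them, so they passed the filter through their cachectic libraries alone and had to differ. The background was high, since 56.4% of all genes tested were called higher there and 49.1% had every cachectic library above every non-cachectic one. The 6260 genes called higher and 420 lower became 2186 and 2338 after median-ratio scaling, which moves the median over all genes by -0.41, and the same 6 members, Lcn2 and Saa1 among them, were called higher on either scale. Serpina3n stood at 28, 37.0, 42.0, 52.2 and 2161 TPM in the 5 cachectic libraries and at 1.19, 1.2, 1.73, 1.82 and 3.45 TPM in the 5 non-cachectic ones. The log2 difference was 5.00 ± 0.95 (adjusted p = 0.00252). A single library held the value of 2161 TPM, and without it the groups were still apart, with a log2 difference of 3.84. Lcn2 stood at 4.03, 12.6, 17.0, 35.6 and 280 TPM against 0.148, 0.404, 0.477, 0.554 and 0.936 TPM (4.15 ± 0.79, adjusted p = 0.00254). Haptoglobin was low in this muscle, at 9.17, 9.57, 19.7, 26.7 and 35.5 TPM against 0.394, 0.758, 0.846, 1.52 and 2.15 TPM, yet its medians were 23.3 times apart (3.19 ± 0.35, adjusted p = 0.00013).

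Lbp stood at 7.74, 11, 14.2, 14.3 and 59.9 TPM in the cachectic tibialis anterior and at 1.35, 1.56, 1.63, 1.83 and 2.23 TPM in the non-cachectic one (2.66 ± 0.40, adjusted p = 0.000748). Lrg1 stood at 31.2, 40.3, 40.4, 55.3 and 135 TPM against 8.47, 11.4, 11.6, 14.2 and 16.4 TPM (2.02 ± 0.33, adjusted p = 0.00111). For Lbp and Lrg1, too, no libraries overlapped. Saa1 reached 1.12, 2.05, 2.99, 10.4 and 47.8 TPM, while its non-cachectic libraries lay between 0.0936 and 0.240 TPM (2.51 ± 0.67, adjusted p = 0.00999). Saa2, at 0.430 to 12.6 TPM with the cachectic melanoma and at 0 in 4 of the 5 non-cachectic libraries, was not tested. Saa3 stood at 0.104, 1.02, 2.22, 3.95 and 17.6 TPM against 0.367, 0.913, 0.999, 2.36 and 12.5 TPM, with overlapping groups and a log2 difference of 0.30 ± 0.73 (adjusted p = 0.727) that turned to -0.03 after median-ratio scaling and to -0.29 without the library with the highest Saa3.

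In the soleus, Serpina3n, Hp, Lbp and Lrg1 were higher and Saa3 did not pass, while Lcn2 was called but had to differ, since no non-cachectic library reached 1 TPM for it. Of all genes tested, 17.5% were called higher and 14.6% had groups fully apart. The same 5 members, Lcn2 included, were called after median-ratio scaling, where 1716 genes were called higher and 1674 lower in place of 2098 and 901. Haptoglobin had the largest log2 difference here, 4.39 ± 0.75 (adjusted p = 0.00222). It stood at 38.3, 193, 415, 485 and 1386 TPM in the cachectic libraries and at 5.98, 10.9, 15, 18 and 19.8 TPM in the non-cachectic ones, with no overlap. Serpina3n stood at 52.2, 82.5, 111, 151 and 784 TPM against 7.49, 10.1, 10.2, 10.7 and 11.3 TPM (3.72 ± 0.56, adjusted p = 0.00113). Lcn2 stood at 2.22, 2.79, 2.93, 14.7 and 27.3 TPM against 0.259, 0.344, 0.418, 0.490 and 0.552 TPM (2.38 ± 0.54, adjusted p = 0.00835).

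Lrg1 stood at 33.7, 34.3, 81.8, 99.7 and 234 TPM in the cachectic soleus and at 10.9, 11.6, 14, 15 and 15.7 TPM in the non-cachectic one (2.39 ± 0.44, adjusted p = 0.0032). Lbp stood at 7.56, 14.8, 26.3, 27.2 and 49.0 TPM against 4.37, 5.16, 5.57, 5.65 and 7.36 TPM (1.75 ± 0.37, adjusted p = 0.00647). The 5 called members were the ones whose groups did not overlap. Saa3 stood at 0.316, 0.347, 1.74, 5.26 and 5.99 TPM against 0.212, 0.426, 0.909, 1.58 and 1.86 TPM (0.63 ± 0.48, adjusted p = 0.366). Saa1, with 0.554 to 9.77 TPM against 0.186 to 0.903 TPM, and Saa2, with 0.352 to 5.53 TPM against 0 to 0.899 TPM, were not tested.

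The difference between the melanomas was then compared between muscles, with the mock-treated libraries standing for the diaphragm in the 3 comparisons, which share them. The share of all genes called was 5.04% for diaphragm against tibialis anterior, 2.52% for diaphragm against soleus and 20.4% for tibialis anterior against soleus, and 0 members were called in any of them by limma, nor did any have an unadjusted p under 0.05. Lcn2 came nearest, with a difference 1.72 ± 0.86 log2 units smaller in the diaphragm than in the tibialis anterior (log2 value -1.72, 95% interval -3.47 to 0.03, adjusted p = 0.21) and 1.77 ± 0.99 larger in the tibialis anterior than in the soleus (95% interval -0.23 to 3.77, adjusted p = 0.181). The intervals were wide for the other genes too. That of Serpina3n ran from -2.82 to 1.57 for diaphragm against tibialis anterior, so an effect 4-fold smaller in the diaphragm lay within it.

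The column headers of the table number the libraries, and 10 numbers occur in all 3 muscles, 5 with each melanoma. The labels do not say that a number marks a mouse. Number 8, a cachectic one, held the highest value of all 8 members in the soleus and of 7 in the tibialis anterior, where Saa2 was highest in number 10. Among the 5 cachectic diaphragm libraries with these numbers it was highest for 6 members and not for Hp or Saa2. Albumin in its diaphragm library was 3.65 TPM. Without number 8 the mean of Serpina3n in the cachectic tibialis anterior dropped from 464 to 39.8 TPM, by a factor of 11.7, that of Lcn2 by a factor of 4.03 and that of Saa1 by 3.11. The same counts of members were called without it, 7 in the mock-treated diaphragm, 6 in the tibialis anterior and 5 in the soleus, with log2 differences of Serpina3n of 4.08, 3.84 and 3.10. Of all genes 3658 of 13416, 7427 of 11135 and 2708 of 12044 were called in these fits. With the column number as a block, a fit added after the data were seen, Lcn2 passed for diaphragm against tibialis anterior (-1.84, adjusted p = 0.0375) and for tibialis anterior against soleus (1.77, adjusted p = 0.0336), among 2317 and 5569 genes called.

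**Figure D3:**
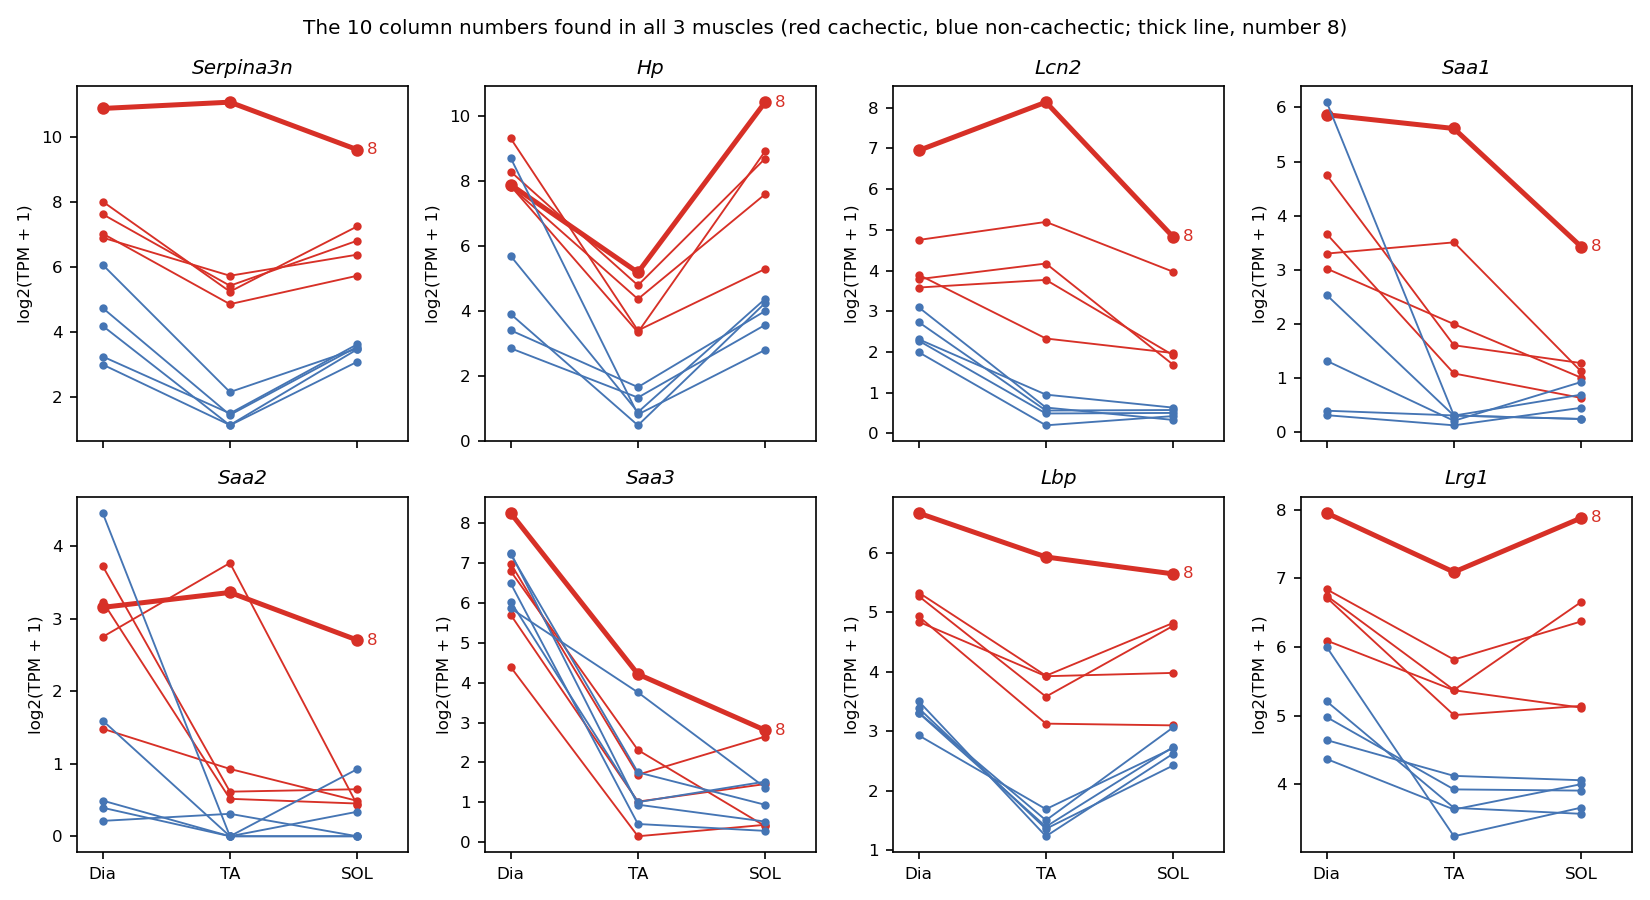
Level of each member, log2(TPM + 1), in the diaphragm, tibialis anterior and soleus libraries of the 10 column numbers found in all 3 muscles. Each line is 1 number, red cachectic and blue non-cachectic, and the thick line is number 8, which reaches 2161 TPM for Serpina3n in the tibialis anterior.

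Levels with the non-cachectic melanoma also differed between muscles. In the diaphragm, 6 of the 8 were higher than in the tibialis anterior, where 64% of all genes were called higher in the diaphragm. Saa3 led with a log2 difference of 4.11 ± 0.72 (adjusted p = 5.4e-06), then Hp with 3.67 ± 0.75 (adjusted p = 5.87e-05), Serpina3n with 2.39 ± 0.77 (adjusted p = 0.00634), Lbp with 1.90 ± 0.36 (adjusted p = 2.04e-05), Lcn2 with 1.71 ± 0.61 (adjusted p = 0.0134) and Lrg1 with 1.28 ± 0.35 (adjusted p = 0.00177). Against the soleus 3 were higher in the diaphragm (16.8% of all genes), namely Saa3 (4.77 ± 0.72, adjusted p = 1.94e-06), Lcn2 (1.78 ± 0.61, adjusted p = 0.0204) and Lrg1 (1.15 ± 0.35, adjusted p = 0.00953). No non-cachectic limb library reached 1 TPM for Lcn2, and 2 of 5 non-cachectic tibialis anterior libraries did for Hp. Both entered this fit through groups where they are high, so Lcn2 against either limb muscle and Hp against the tibialis anterior were likely to differ. Between the limb muscles 0 members were higher in the tibialis anterior, where 5.63% of all genes were, and 3 were lower, where 63.9% of all genes were, namely Hp (-2.77 ± 0.85, adjusted p = 0.00471), Lbp (-1.28 ± 0.41, adjusted p = 0.00638) and Serpina3n (-1.97 ± 0.88, adjusted p = 0.0449). The call for Serpina3n was lost when any 1 of 9 libraries was left out and after median-ratio scaling (-1.56, adjusted p = 0.113). That scaling changed the genes called higher in the diaphragm from 8640 to 4942 and those lower from 1150 to 4436 against the tibialis anterior, with the same 6 members higher. Between the limb muscles it changed the genes called higher in the tibialis anterior from 760 to 3495 and those lower from 8625 to 3679. In the libraries with albumin under 20 TPM, where 8559 of 13272 genes were called against the tibialis anterior, 4 of these 6 calls held, and Serpina3n (2.02, adjusted p = 0.0609) and Lcn2 (1.57, adjusted p = 0.0734) did not pass. Against the soleus, where 3269 genes were called, Saa3 passed (4.40) and Lcn2 (1.65, adjusted p = 0.142) and Lrg1 (1.11, adjusted p = 0.0687) did not. With the Dunn tests, adjusted and then unadjusted, 1 and 3 of the 6 calls against the tibialis anterior and 1 and 2 of the 3 against the soleus were left, and none of the 3 between the limb muscles. Of all 13501 genes, 6884 and 8182 were called against the tibialis anterior and 1178 and 4658 against the soleus. Between the limb muscles 4990 and 6667 were. With the column number as a block Saa1 was called against the tibialis anterior as well (1.56, adjusted p = 0.0413), among 10388 of 13501 genes called. No non-cachectic tibialis anterior library reached 1 TPM for Saa1. Markers of other cells moved with these levels. All 7 mesothelial markers were higher in the diaphragm than in either limb muscle, as were 10 of 10 macrophage markers against the tibialis anterior and 9 of 10 against the soleus, and 12 of 15 liver markers against the tibialis anterior. In the tibialis anterior 8 of 8 adipocyte and 8 of 10 macrophage markers were lower than in the soleus, and 7 of 8 and 5 of 10 after median-ratio scaling. Their part in the result was not tested.

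Over all 8 groups, most neighbours in the order of median levels overlapped. Gaps between neighbours, with every library of the higher group above every library of the lower, occurred for Serpina3n between the cachectic tibialis anterior and the non-cachectic rFibcd1 diaphragm and between the non-cachectic soleus and tibialis anterior. Lcn2 had one between the cachectic soleus and the non-cachectic tibialis anterior, Lbp between the non-cachectic soleus and tibialis anterior, Hp between the non-cachectic mock diaphragm and the non-cachectic tibialis anterior, and Lrg1 between the non-cachectic mock diaphragm and the non-cachectic soleus. The Saa genes had none. The summed level of the 8 genes had medians of 1075 TPM in the cachectic and 145 TPM in the non-cachectic mock diaphragm, 983 and 188 TPM under rFibcd1, 146 and 19.5 TPM in the tibialis anterior, and 640 and 49 TPM in the soleus.

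Pairs of members were also compared between diaphragm libraries of the same group. The share of correlated pairs among all genes was not computed, so the counts below have no background beside them. After the mean of each group was taken out, 18 of the 28 pairs of members were correlated across the 20 cachectic libraries (permutation tests of Pearson's r and Spearman's rho, both adjusted p under 0.05, 28 pairs per melanoma), and the median r was 0.62. Saa1 and Saa2, which share sequence, had r = 0.93 and rho = 0.93 (permutation p = 1e-05, the smallest that 100000 resamples can give, adjusted p = 9.33e-05 for r). Serpina3n and Lrg1 had r = 0.88, and Serpina3n and Lcn2 had r = 0.87 with rho = 0.89 (permutation, adjusted p = 9.33e-05 and 0.00014). Without the 2 libraries farthest from the median these were 0.91 for the first pair of genes, 0.91 for the second and 0.83 for the last. Of the 18 pairs, 16 kept an r above 0.5 in the 17 cachectic libraries above the Pcna-ps2 limit, 16 did in the 10 with albumin under 20 TPM, and 15 did without the 2 farthest libraries. In the 19 non-cachectic libraries 9 of 28 pairs were correlated, with a median r of 0.43. Of these 9, 5 kept an r above 0.5 without the 2 farthest libraries, 7 in the libraries above the Pcna-ps2 limit and 7 in those with albumin under 20 TPM. Serpina3n and Hp had r = 0.87 and rho = 0.84 (permutation, adjusted p = 0.00028 and 0.00056, r = 0.79 without the 2 farthest libraries). Saa3 was correlated with 0 of the other 7 members in either melanoma.

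**Figure D4:**
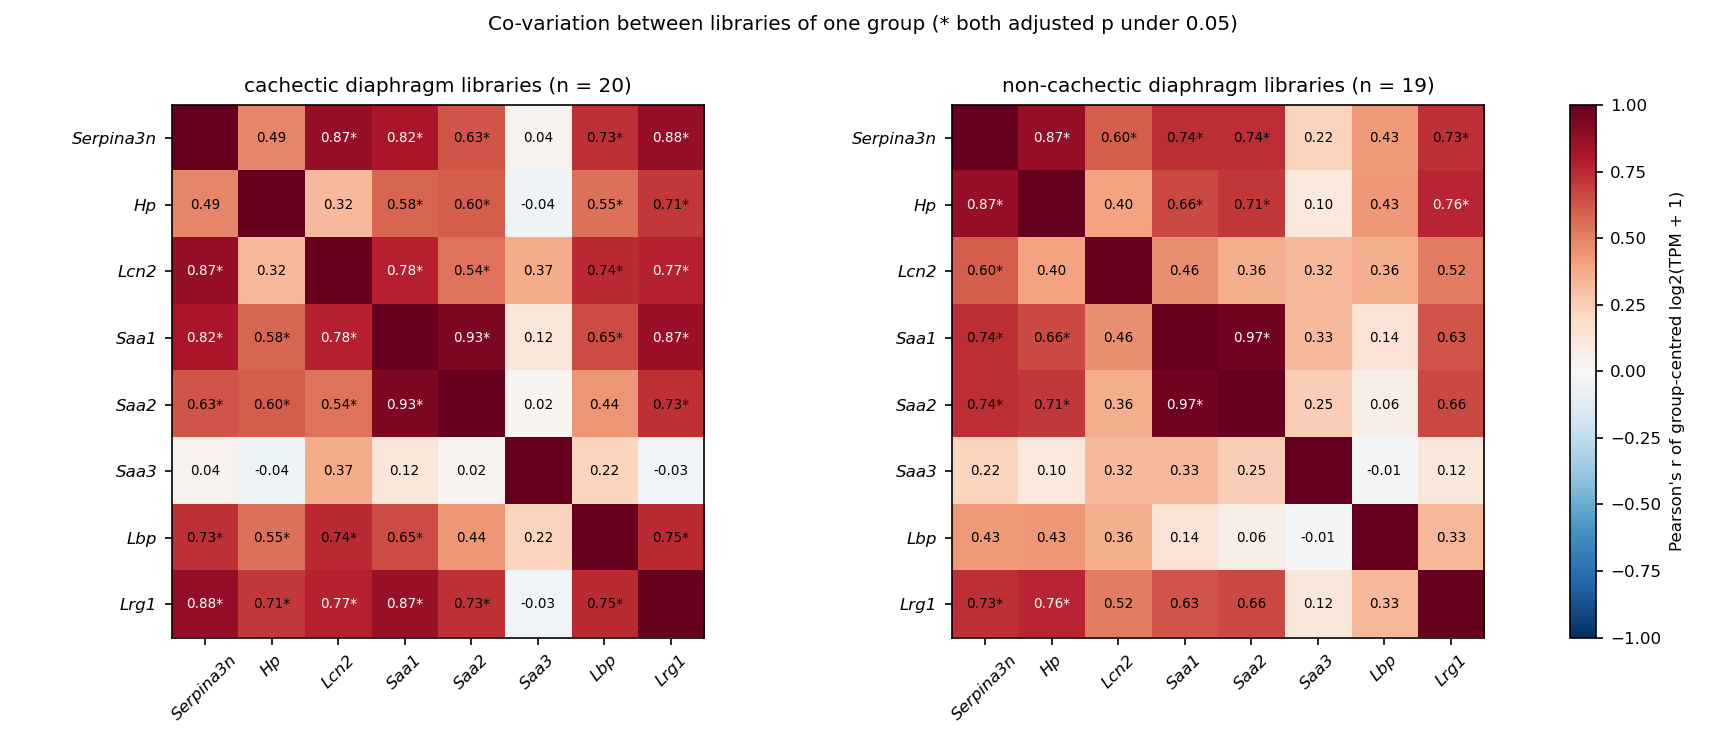
Pearson's r between each pair of members over diaphragm libraries after the mean of each group was removed, for the 20 cachectic libraries on the left and the 19 non-cachectic ones on the right. Stars mark pairs with both adjusted permutation p-values under 0.05, 18 of 28 and 9 of 28, and the Saa3 rows hold none.

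Among the genes that carry the acute-phase signal, many but not all of the listed transcription factors and feedback genes were higher along with the members. In the mock-treated diaphragm 9 of 12 listed factors were higher and 0 lower, among them Socs3, the feedback inhibitor of cytokine signalling (2.45 ± 0.30, adjusted p = 1.49e-06), and Cebpd, a C/EBP factor (2.25 ± 0.30, adjusted p = 3.8e-06). Of 12 receptors and kinases 6 were higher, with Osmr, the oncostatin M receptor, at 1.43, and Tnfrsf1a, a receptor of tumour necrosis factor, at 0.98. For comparison, 30.9% of all genes were called higher here. Of 4 inducing ligands tested 1 was higher, Cntf at 0.46. Of 13 receptors for the members' products 7 were higher, including Cd163, the receptor for haptoglobin complexes, at 1.56 and Cd14, the partner of Lbp, at 1.2. Of 20 further positive acute-phase genes 6 were higher, near the 30.9% of all genes, with Itih4 at 2.61 and Serpina3h at 1.67. After median-ratio scaling 6 of them were called higher and 1 lower, beside 997 and 1190 of all genes. Of 7 negative acute-phase genes, which fall in the liver in an acute-phase response, 1 was higher on the deposited TPM, Igfbp3 at 1.69. Under rFibcd1 the same lists gave 5 of 12 factors (Socs3 at 1.59, Cebpd at 1.28), 2 of 12 receptors and kinases, 0 of 4 ligands, 3 of 13 product receptors, 4 of 20 positive and 0 of 7 negative genes, all higher, where 7.14% of all genes were. After median-ratio scaling 8 factors were called higher and 1 lower in the mock-treated diaphragm, with Socs3 at 2.24 and Cebpd at 2.04, and Cntf was no longer called (0.27). In the comparison of rFibcd1 with mock treatment 0 of the 68 genes tested from these lists were called by limma in either melanoma, and 8 with the cachectic and 10 with the non-cachectic one had an unadjusted p under 0.05.

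In the tibialis anterior, where 56.4% of all genes were called higher, 11 of 12 factors were, with Socs3 at 3.78 and Cebpd at 2.96, and 8 of 11 receptors and kinases, including Il6ra at 2.00 and Osmr at 2.00. The complement genes C4b (2.97) and C3 (2.66) led the 8 of 10 positive acute-phase genes called there. After median-ratio scaling 10 of 12 factors were called higher in this muscle and 1 lower. That scaling left 6 of 11 receptors and kinases higher, beside 2186 of all genes. In the soleus, where 17.5% of all genes were called higher, 8 of 12 factors were, with Socs3 at 2.62 and Cebpd at 2.10. Receptors and kinases moved both ways in the soleus, with 4 of 11 higher, among them Osmr at 1.34, and 3 lower, among them Jak2 at -0.49 and Cntfr at -0.52. Of 8 further positive acute-phase genes 5 were higher, led by Serpina3h at 2.35 and C4b at 1.88. Some of these genes did differ between muscles in how far they moved. The differences of C3 (-2.15, adjusted p = 0.00334), Socs3 (-1.33, adjusted p = 0.0394) and Stat3 (-1.05, adjusted p = 0.00157), the factor downstream of gp130, were smaller in the diaphragm than in the tibialis anterior, and so they were after median-ratio scaling (-1.95, -1.23 and -0.83).

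Markers of other cell types stood beside several members. In the mock-treated diaphragm 4 of 10 macrophage markers and 3 of 5 neutrophil markers tested were higher with the cachectic melanoma, as were 2 of 8 adipocyte markers, against 0 of 14 liver and 0 of 7 mesothelial markers and 30.9% of all genes. After median-ratio scaling 4 macrophage, 2 neutrophil and 1 adipocyte marker were called higher, beside 997 of all genes. The sum of the neutrophil markers ranged from 12.5 to 67.7 TPM in the cachectic and from 5.90 to 29.96 TPM in the non-cachectic mock group, that of the macrophage markers from 433 to 1749 and from 249 to 835 TPM, and that of the adipocyte markers from 494 to 3065 and from 296 to 1484 TPM. In the tibialis anterior 7 of 7 macrophage and 2 of 2 neutrophil markers tested were higher, beside 56.4% of all genes. After median-ratio scaling these were 5 and 2. In the soleus 1 of 8 and 2 of 2 were higher, beside 17.5%. Of the other lists in the soleus, the fibroblast markers Lum (-1.13) and Col1a1 (-2.33) and the endothelial marker Kdr (-0.59) were lower. The endothelial markers Vwf (0.77) and Tek (0.35), the adipocyte marker Plin4 (0.52) and the liver marker F2 (0.46) were higher. Mpo, a neutrophil granule enzyme, was listed at 0 in all 10 cachectic limb libraries. In the limb muscles 13 liver markers summed to between 0.519 and 21.9 TPM in the cachectic libraries and to between 0.639 and 73.3 TPM in the non-cachectic ones, the highest being a soleus library. The diaphragm library with Saa3 at 2987 TPM had the highest macrophage sum of its group, 3989 TPM against a group median of 1306 TPM. Over the 5 cachectic soleus libraries Hp and the adipocyte sum rose in the same order, the sum from 413 to 5379 TPM. In the non-cachectic soleus that sum lay between 566 and 1307 TPM. The part of these cells in the members' levels was not tested.

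**Figure D5:**
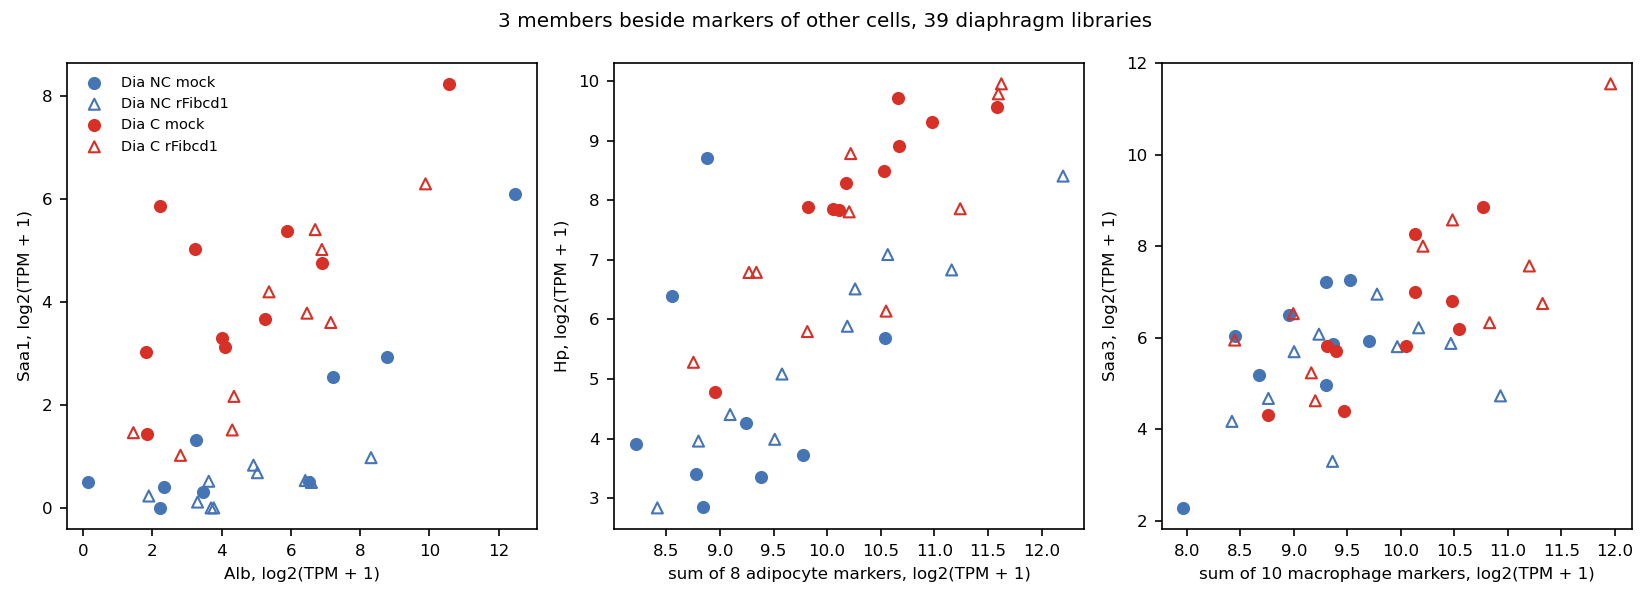
Levels in the 39 diaphragm libraries, log2(TPM + 1), of Saa1 beside albumin, of Hp beside the sum of 8 adipocyte markers and of Saa3 beside the sum of 10 macrophage markers. Circles are mock and triangles rFibcd1 libraries, and the library at the top right of the Saa3 panel holds 2987 TPM of Saa3 and 3989 TPM of macrophage markers.

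The genes whose levels followed each member most closely over the 39 diaphragm libraries, after group means were removed, differed between members. For Serpina3n they were Apod and the pseudogene Serpina3e-ps (r = 0.90 each), the latter sharing sequence with it, and Mt2, a metallothionein (0.88). For Lcn2 they were Serpina3n (0.83), Mt2 (0.82) and Ankrd10 (0.81), and for Lrg1 Serpina3n (0.86), Sema6b (0.85) and the ribosomal protein gene Rps18 (0.84). Saa1 was closest to Saa2 (0.93), Itih3 (0.91) and Fetub (0.91), and Saa2 to Saa1 (0.93), Itih3 (0.90) and Apcs (0.89), of which Itih3, Fetub and Apcs are liver plasma proteins. Haptoglobin was closest to Mgst1 (0.90), Itih4 (0.88) and Aldh1l1 (0.86). Its r was 0.85 with the sum of all 15 liver markers, 0.59 with albumin alone and 0.70 with the adipocyte sum. The sum of 15 holds Cyp2e1, which lay at 35.4 to 141 TPM in the non-cachectic soleus, where albumin lay at 0.193 to 44.2 TPM. Saa1 and Saa2 had r = 0.80 and 0.81 with albumin. Saa3 was closest to Dpep2 (0.79), Slpi (0.79) and Pla2g7 (0.78), and Lbp to Rheb (0.84), Slc35f5 (0.84) and Pdcl3 (0.84). These values describe libraries that share groups and scaling, and no test was made of them.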

How the data were processed

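RNA-seq libraries of 39 diaphragms, 10 tibialis anterior and 10 soleus muscles were used. Per the study's methods, the authors trimmed the paired-end reads, aligned them to GRCm38 (mm10) and deposited TPM values per gene from CLC Genomics Workbench. The annotation and the use of strand were not given in the sources used here, and the labels and methods name different kits and instruments. Read depth is unknown, so no counting interval was made. The study's heat map of diaphragm genes used fewer cachectic libraries. All were kept here.

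Values were taken as log2(TPM + 1), filtered at 1 TPM, and fitted with limma 3.58.1 in R 4.3.3, with empirical Bayes moderation and Benjamini-Hochberg adjustment over the 13426, 11105, 11957 and 13501 genes of the diaphragm, tibialis anterior, soleus and muscle fits. The scripts were tested on simulated data. Correlations used scipy 1.17.1 and Python 3.11.15. Replicates are called biological by the labels, but nothing ties libraries to cages or days, so p-values measure the spread between these samples.

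Alternatives included median-ratio scaling and the Kruskal-Wallis and Dunn tests of the study. Members and lists were chosen with earlier results of these data known. All members are named; from each list the 2 called genes with the highest and the 2 with the lowest log2 difference could be named, or the 2 with the highest level where none passed. The albumin limit, the column-number block and the fits without number 8 were added after seeing the data.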

Additional observations from a re-analysis of the deposited data

Results flagged for a closer look

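Of 64 groups of libraries (8 genes in 8 groups) tested for a single extreme library, 10 were flagged by the gap to the nearest library over the range of the group, where chance flags about 1 in 20. In the cachectic tibialis anterior the highest library was far above the others for Serpina3n (2161 TPM, the next at 52.2) and Lbp (59.9 TPM, the next at 14.3), and in the cachectic soleus for Saa1 (9.77 TPM, the next at 1.43) and Saa2 (5.53 TPM, the next at 0.567). All 4 were column number 8. In the non-cachectic limb muscles, the lowest soleus library stood apart for Serpina3n (7.49 TPM, the next at 10.1), and 1 tibialis anterior library held the only Saa2 value above 0 (0.239 TPM). In the diaphragm, the cachectic mock library with albumin at 1516 TPM stood apart for Saa2 (307 TPM, the next at 15.7), and the non-cachectic mock library with albumin at 5724 TPM for Saa1 (67.4 TPM, the next at 6.59). The lowest library stood apart for Hp in the cachectic mock group (26.6 TPM, the next at 227), which was the 1 library of that group under the Pcna-ps2 limit, and for Saa3 in the non-cachectic mock group (3.85 TPM, the next at 30.1).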

How the results depend on the processing

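Each count of members called was repeated with a pseudocount of 0.1, with other filters, scalings and tests, with subsets of libraries and without each library, and 131 such counts stayed within 1.5 times the first one while 12 did not. Of the repeated log2 differences, 811 kept their direction and side of the threshold, 47 kept the direction and lost the call, 11 kept it and gained one, and 23 turned. None of the values that turned was called in the first fit, and the cause was not tested. Depth is unknown, and with 5 libraries a group in the limb muscles and wide spreads in the diaphragm, differences below the stated intervals were not resolved.

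The 6 members called between melanomas under rFibcd1 became 0 with the Kruskal-Wallis and Dunn tests adjusted over all genes, 0 in the libraries above the Pcna-ps2 limit and 0 in those with albumin under 20 TPM, where in each case 0 genes of the whole table were called. In the last, 3 members in place of 0 were called for rFibcd1 against mock treatment with the cachectic melanoma, and 1 in place of 3 for the level in diaphragm against soleus. With the Dunn tests, adjusted and then unadjusted, the 6 members higher in the diaphragm than in the tibialis anterior became 1 and 3, beside 6884 and 8182 of 13501 genes. The 3 that differed between the limb muscles became 0 and 0, beside 4990 and 6667 genes. The adjusted Dunn tests left 1 of 3 for diaphragm against soleus, beside 1178 genes. With the column number as a block, 1 member in place of 0 differed in its response between diaphragm and tibialis anterior and 1 between tibialis anterior and soleus. All genes called in the mock-treated diaphragm went from 4501 to 2187 with median-ratio scaling, to 2059 with the Pcna-ps2 state as a term and to 805 in the libraries above its limit.

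Without each library in turn, the members called ranged from 6 to 7 in the mock-treated diaphragm, from 6 to 8 under rFibcd1, from 2 to 3 for the levels of the limb muscles, and stayed at 6 and 3 for the levels of the diaphragm against the tibialis anterior and the soleus. They stayed at 6 in the tibialis anterior, 5 in the soleus and 0 in the comparisons of rFibcd1 with mock treatment, the interaction and the responses between muscles.

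The values that turned were these. For rFibcd1 against mock treatment with the cachectic melanoma, Lcn2 became 0.44 as a difference of medians beside the Dunn tests, 0.18 without number 8 and ranged from -0.28 to 0.19 without 1 library, and Saa2 ranged from -0.66 to 0.20 without 1 library. With the non-cachectic melanoma, Lcn2 became -0.011 with median-ratio scaling and -0.27 beside the Dunn tests and ranged from -0.0034 to 0.23 without 1 library, Serpina3n 0.20 beside the Dunn tests and 0.49 above the Pcna-ps2 limit, and Saa3 0.94 above that limit and 0.32 with albumin under 20 TPM. The interaction of Saa3 became -0.15 above the limit. Saa3 in the tibialis anterior became -0.032 with median-ratio scaling and -0.29 without number 8, and ranged from -0.29 to 0.84 without 1 library. Between muscles, the response of Hp in diaphragm against tibialis anterior became -0.39 with a pseudocount of 0.1, the level of Hp in diaphragm against soleus -0.10 beside the Dunn tests, and in tibialis anterior against soleus the level of Lrg1 became 0.43 with median-ratio scaling and that of Lcn2 ranged from -0.022 to 0.17 without 1 library.

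No paired analysis was possible because the columns do not carry the replicate numbers of the labels. The column numbers are a separate set whose meaning the labels do not give, and a block on them was fitted only as the alternative above, with a consensus correlation of 0.381 over 19 numbers.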
